A study of Mus musculus with 31 samples.

Results

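The genes described here are the variable (V) genes of the T cell receptor alpha chain, taken as all gene symbols that begin with Trav and a number. There were 130 of them among the 55276 gene symbols of 21 count tables, and 128 among the 49315 Ensembl genes of the other 10 tables. Trav13-5 and Trav7d-6 were listed only in the former. They fall into 23 numbered families, and were read in 19 libraries of CD4+ T cells and 12 of whole spleen from mice of strain C57B/6. For each library, the usage of a gene or family was its share of all counts on Trav genes, given in percent.

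Libraries came in 3 sets. In the pre-lymphoma set, CD4+ T cells of status normal carried the genotype CD4-Cre-ERT2(WT) (2 libraries, TA018 and TA019). A pair of groups of 3 libraries, both of status pre-lymphoma, had genotypes of 2 parts joined by a slash, with Vav1Myo1ffl/wt;CD4CreERT2 (Vav1Myo1f) on one side (TA020 to TA022, called control/fusion) or on both (TA023 to TA025, called fusion/fusion). What the slash stands for is not given. In the CD4-Cre set, CD4+ cells of 3 CD4-Cre(WT) mice and 4 mice with tumors, of genotype CD4-CreVav1Myo1f fl/wt, were read together with 3 WT and 3 tumor spleens. In the CD4-CreERT2 set, CD4+ cells of 2 CD4-CreERT2 (WT) mice and 2 mice with tumors, of genotype CD4-CreERT2Vav1Myo1f fl/wt, were read together with 3 WT and 3 tumor spleens. All controls thus carried the recombinase too. Cre is driven by Cd4, which T cells also express before they become CD4+ or CD8+, and CreERT2 acts in the presence of tamoxifen; the labels give neither ages nor tamoxifen doses. WT libraries and a tumor library share the number VM645 and were counted as different mice. The labels do not say that the pre-lymphoma libraries are separate animals, so p-values there measure only the spread between these samples.

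A mature T cell with an alpha chain carries 1 Trav gene joined to 1 joining gene (Traj), read together with the constant gene Trac. All its daughters keep that choice. A population of many clones therefore uses many Trav genes. In contrast, a population that grew from a single such mature cell shares a single joined Trav gene, or a pair when both alleles were joined. The mouse locus holds duplicated blocks, so that many Trav genes have near-identical copies, marked by the letters d and n in their names.

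The V exons of 6 genes on which the results turn are shown, since reads can be assigned to a Trav gene only where its sequence differs from that of its copies. Each is the coding part of the V exon from GENCODE M21 on GRCm38, on the plus strand. Capitals mark bases that differ from the Trav gene with the most similar V exon. Trav13-1 led the Trav counts of tumor VM231, at chr14:53545247-53545525, and differed from Trav13d-1 at 11 of 279 bases. Trav6n-6 led tumor VM98, at chr14:53132840-53133137, and differed from Trav6-6 at 8 of 298. Trav15-2-dv6-2 at chr14:53649695-53649994 (6 of 300 bases differed from Trav15d-2-dv6d-2) and Trav3-3 at chr14:53666216-53666506 (4 of 291 from Trav3d-3) led spleen VM294. Trav7-4, at chr14:53461447-53461738, led the 5 WT libraries of CD4+ cells outside the pre-lymphoma set and differed from Trav7d-4 at 1 of 292. Trav11d, at chr14:52824623-52824912, had no difference from Trav11 over 290 bases.
Trav13-1: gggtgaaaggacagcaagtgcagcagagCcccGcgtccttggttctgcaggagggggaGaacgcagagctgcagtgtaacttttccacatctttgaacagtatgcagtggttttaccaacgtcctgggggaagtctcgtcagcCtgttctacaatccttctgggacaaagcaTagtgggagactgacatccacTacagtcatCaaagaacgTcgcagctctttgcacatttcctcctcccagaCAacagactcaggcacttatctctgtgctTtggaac
Trav6n-6: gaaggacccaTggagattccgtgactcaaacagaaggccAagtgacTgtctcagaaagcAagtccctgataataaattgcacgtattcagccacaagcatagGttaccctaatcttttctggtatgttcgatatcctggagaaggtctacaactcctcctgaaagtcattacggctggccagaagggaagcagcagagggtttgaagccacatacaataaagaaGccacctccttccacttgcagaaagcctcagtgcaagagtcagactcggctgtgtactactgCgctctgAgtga
Trav15-2-dv6-2: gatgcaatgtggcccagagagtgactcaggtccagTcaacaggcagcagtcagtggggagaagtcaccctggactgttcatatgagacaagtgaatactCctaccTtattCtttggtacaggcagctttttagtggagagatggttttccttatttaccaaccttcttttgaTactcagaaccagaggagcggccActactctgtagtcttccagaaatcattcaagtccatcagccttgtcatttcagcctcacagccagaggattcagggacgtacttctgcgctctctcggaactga
Trav3-3: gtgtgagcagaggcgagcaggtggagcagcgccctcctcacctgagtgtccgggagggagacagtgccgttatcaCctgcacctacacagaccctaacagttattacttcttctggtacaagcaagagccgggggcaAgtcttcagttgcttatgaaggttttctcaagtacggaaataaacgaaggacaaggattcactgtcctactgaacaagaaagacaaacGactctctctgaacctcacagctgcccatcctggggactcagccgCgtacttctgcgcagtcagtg
Trav7-4: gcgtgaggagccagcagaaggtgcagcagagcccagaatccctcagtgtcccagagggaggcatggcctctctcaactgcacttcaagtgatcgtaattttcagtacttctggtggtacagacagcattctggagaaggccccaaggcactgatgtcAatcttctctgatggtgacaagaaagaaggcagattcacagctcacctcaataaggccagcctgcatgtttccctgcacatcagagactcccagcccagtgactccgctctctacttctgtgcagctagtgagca
Trav11d: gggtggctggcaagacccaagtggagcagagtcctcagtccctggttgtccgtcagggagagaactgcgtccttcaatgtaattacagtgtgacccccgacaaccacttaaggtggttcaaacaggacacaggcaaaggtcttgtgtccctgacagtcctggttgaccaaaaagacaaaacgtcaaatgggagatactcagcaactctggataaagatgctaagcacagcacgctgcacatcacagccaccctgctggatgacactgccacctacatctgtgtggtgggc

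Of all stretches of 50 bases in the transcript, 54.6% in Trav13-1 and 68.4% in Trav6n-6 were found in no other Trav transcript. Reads of Trav7-4 and Trav7d-4 can be told apart only over a single base of the coding exon, and those of Trav11d and Trav11 not at all there. Gene coordinates came with the counts of the CD4-CreERT2 set only. For the 128 genes they equal those of GENCODE, on chromosome 14 from 52427928 to 53977678, ahead of Trac at 54220521 to 54224206. Of the 128, 108 are annotated as V genes and 20 as pseudogenes. In 39 genes no stretch of 50 bases was unique among Trav transcripts, and they took 5813 of 158786 Trav counts. No count fell on 5 genes in any library (Trav5d-3, Trav13d-3, Trav5n-3, Trav13n-3 and Trav15n-3), each of them in a duplicated block. None of these 5 lacked a unique stretch of 50 bases. Because many copies share stretches, usage is also given with copies merged under the name they share.

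Depth ran from 12632000 to 37569000 gene counts per library, of which 836 to 14512 fell on Trav genes. The fewest were in the spleens of the CD4-Cre set, with 836 to 3105. Summed counts scaled to a common total of gene counts (CPM) of the CD4+ T cell markers Cd4, Cd3d, Cd3e, Trac and Cd5 were 2475 to 3674 in CD4+ cells and 226 to 1242 in spleens. In the CD4+ libraries the CD8 T cell markers Cd8a and Cd8b1 summed to 8.65 to 47.2 CPM and B cell markers to 27.7 to 1876. Macrophage and monocyte markers summed to 55.1 to 1510 CPM there and neutrophil markers to 1.15 to 4485. These libraries thus also held RNA of other cells. In bulk RNA, fewer cells of a type and less RNA per cell cannot be told apart. Intervals of shares are exact 95% Clopper-Pearson intervals and cover counting error only, since reads carry no molecular identifiers.

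In WT CD4+ cells, usage was spread over many Trav genes and was alike in the 3 sets. Between 88 and 113 genes had a count. Over the 7 WT libraries of CD4+ cells the most used families by mean share were Trav14 (17.4%), Trav7 (14.4%), Trav9 (7.98%), Trav6 (7.95%) and Trav12 (7.08%). The most used genes were Trav7-4 with a mean of 5.53%, Trav14-2 with 3.68% and Trav14n-3 with 3.49%. Trav7-4 took 6.58% in VM211, 5.33% in VM216 and 5.41% in VM645 of the CD4-Cre set, and 5.97% and 8.13% in A1 and A3 of the CD4-CreERT2 set. It led all 5 of these libraries, while TA018 and TA019 were led by Trav14-2 (4.45%) and Trav14d-3-dv8 (4.96%). Mean usage had a Spearman correlation of 0.86, 0.87 and 0.92 between pairs of sets over 128 genes, which share their sequence and annotation.

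**Figure D1:**
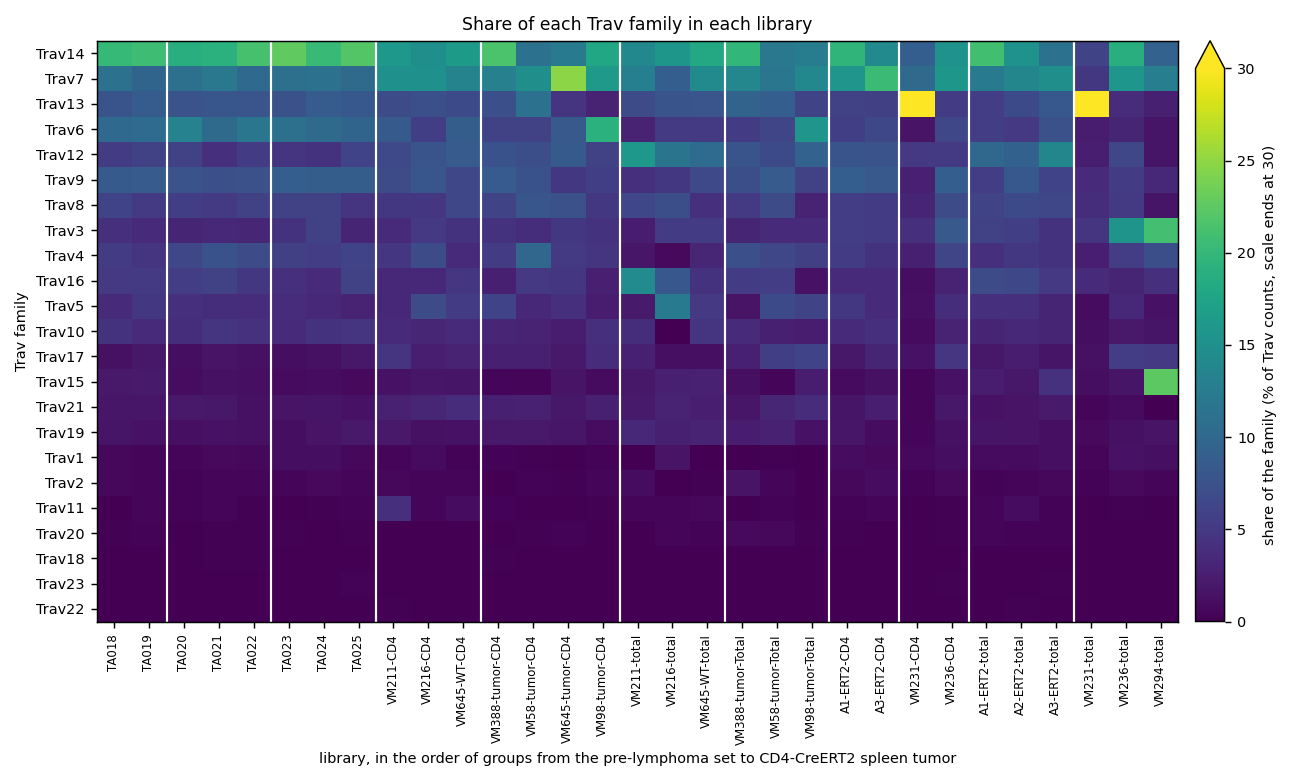
Share of each Trav family (rows) in the Trav counts of each library (columns, grouped by set, source and status between white lines), with colour giving the share in percent on a scale that ends at 30. Trav14 and Trav7 are high in nearly all columns, whereas Trav13 stands at 54.5% and 59.4% in the libraries of tumor VM231, and Trav15 and Trav3 at 22.4% and 20.99% in spleen VM294.

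The family view hid how evenly the copies within a family were used. In TA018 the Trav14 family held 20.1% of counts, of which Trav14-2 took 4.45%, Trav14-3 4.12% and Trav14d-3-dv8 4.04%. With copies merged, Trav14-3 and its copies together led this library with 11.6%. An effective number of genes, 1 over the sum of squared shares, puts usage on 1 scale: it equals the number of genes if all are used alike, and 1 if a single gene is used. It was 44.8 and 44.4 in TA018 and TA019, 41.3, 42.1 and 44.6 in VM211, VM216 and VM645 WT cells, and 40.1 and 39.7 in A1 and A3. WT CD4+ cells thus lay between 39.7 and 44.8 in all 3 sets.

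**Figure D2:**
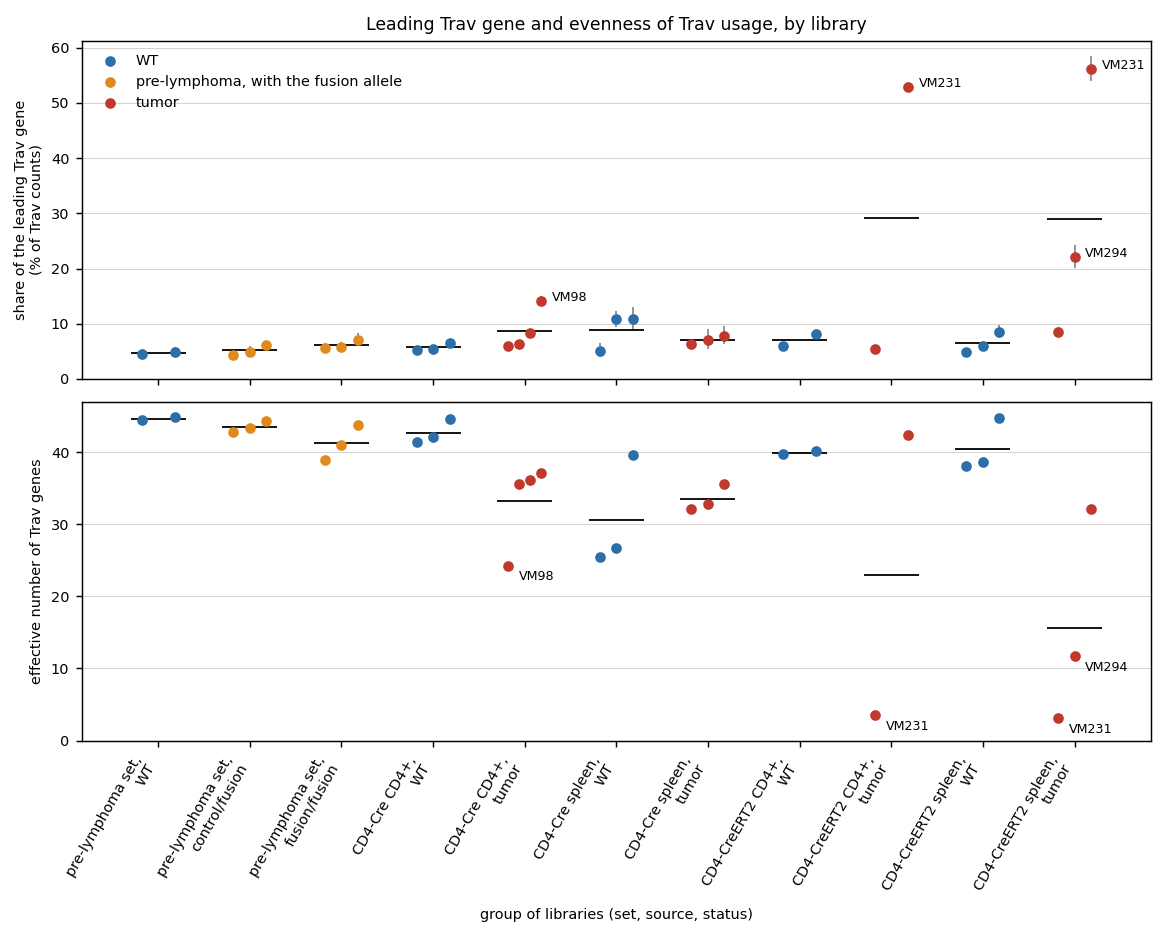
Share of the most counted Trav gene, in percent of Trav counts with exact 95% intervals for counting error (upper panel), and the effective number of Trav genes (lower panel), with 1 point for each library and a bar at each group mean; libraries are placed by value within a group. Most leading shares lie between 4.42% and 10.8%, and those of VM231 (52.8% in CD4+ cells and 56.2% in spleen), spleen VM294 (22.1%) and VM98 CD4+ cells (14.2%) lie above them.

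Before lymphoma, usage stayed spread over many genes. The effective number was 44.2, 42.8 and 43.4 in control/fusion and 41.0, 43.7 and 38.9 in fusion/fusion cells, next to 44.8 and 44.4 in WT cells. All 6 values lay below both WT values, those of TA020 and TA024 by less than the others. Thinning the counts put TA020 and TA024 (44.3 each) above both WT values (43.7 and 42.1), with TA022 (42.8) between them. Leaving out genes with a delta name put TA022 (41.2) and TA024 (40.4) above both (39.3 and 40.0), with TA020 (39.4) between. TA021, TA023 and TA025 stayed below the WT values in each case. The leading gene took 4.42%, 4.90% and 6.24% in control/fusion cells, 5.80%, 5.53% and 7.15% in fusion/fusion cells, and 4.45% and 4.96% in WT cells. Fusion/fusion cells, each led by Trav14d-3-dv8, lay above the WT cells, and control/fusion cells overlapped them. With counts thinned, fusion/fusion cells stood at 5.02%, 4.90% and 6.22% and overlapped the WT cells at 4.90% and 5.86%. TA024 was then led by Trav14-2. With Trav14-3 and its copies merged, the leading shares were 11.6% and 11.9% in WT, 11.2%, 10.3% and 13.0% in control/fusion and 13.3%, 12.6% and 14.1% in fusion/fusion cells. Pairs of these libraries shared 86.2% to 90.1% of their usage, measured as the sum of the smaller share of each gene.

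Of 66 Trav genes tested against WT cells, 2 rose and none fell in control/fusion cells, where 20.3% of all 16257 genes were called, 11.6% higher and 8.7% lower (edgeR's quasi-likelihood test with Benjamini-Hochberg adjustment over all genes tested, as throughout). Trav6-6 stood at 0.245 and 0.115 CPM in WT cells, at 1.21, 0.529 and 3.21 in control/fusion and at 0.146, 0.278 and 0.475 in fusion/fusion cells. The control/fusion libraries lay above all others, TA022 farthest, with 94 counts against 16 and 7 in TA020 and TA021. The log2 fold change against WT was 3.27 ± 0.79 (SE; adjusted p = 0.0169). Trav4n-4 stood at 0.0816 and 0.0769 CPM in WT cells and at 0.0752, 1.66 and 1.74 in control/fusion cells. TA021 and TA022 held 22 and 51 counts and stood apart, and TA020 with 1 count lay at the WT level. Its change was 3.83 ± 0.98 (adjusted p = 0.022). Trav6-6 and Trav4n-4 each match another copy in every base of the coding V exon (Trav6d-6 and Trav4d-4), so their counts are uncertain. With Trav6-6 and its copies merged, TA022 stood at 3.87% of Trav counts and WT cells at 1.004% and 1.302%. Without TA022 neither gene was called, nor without the WT library TA019, where 17.2% and 5.36% of all genes were called.

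In fusion/fusion cells 2 Trav genes fell against WT and none rose, where 45.7% of all genes were called, 22% lower and 23.8% higher. Trav15-1-dv6-1, a gene that delta chains can use as well, stood at 2.57 and 2.04 CPM in WT cells, at 0.980, 1.59 and 1.196 in control/fusion and at 0.511, 0.972 and 0.396 in fusion/fusion cells. The fusion/fusion libraries lay below the others, and the lowest control/fusion library lay just above them. The change was -1.93 ± 0.35 (adjusted p = 0.0015). Trav13-5, listed in the symbol tables alone, changed by -1.36 ± 0.47 (adjusted p = 0.0368), from 0.530 and 0.846 to 0.292, 0.347 and 0.158 CPM, and its groups did not overlap. This call was lost in 3 of 7 alternatives (adjusted p up to 0.181, by DESeq2), among them without TA024 (0.0524) and without TA025 (0.0957). The median over the 66 genes was -0.06, and -0.01 over all genes. The 5 gamma delta T cell markers (Trdc, Tcrg-C1, Tcrg-C2, Tcrg-C4 and Sox13) summed to between 19.2 and 27.9 CPM in WT cells. Sums lay between 26.2 and 37.5 for the control/fusion group, and between 30.8 and 36.0 for the fusion/fusion group. Trdc itself was lower in fusion/fusion than in WT cells, so the higher sum lay in the other 4 markers. These 4 summed to 12.2 and 18.2 CPM in TA018 and TA019, against 29.2, 31.2 and 26.9 in TA023, TA024 and TA025. TA020, TA021 and TA022 stood at 33.2, 20.3 and 23.0 CPM. Erythroid markers summed to 42.5 to 97.7, 102 to 461 and 265 to 307 CPM, with the groups ordered as above. The part of either marker set in these calls was not tested. Compared directly, 2 Trav genes were lower in fusion/fusion than in control/fusion cells and none higher, where 18.9% of all genes were called, 9.3% lower and 9.59% higher. These were Trav6-6 (-2.75 ± 0.69, adjusted p = 0.0207) and Trav4n-4 (-5.67 ± 1.17, adjusted p = 0.0093). The comparisons share libraries. Trav4n-4 had a single count in the 3 fusion/fusion libraries, and by counts and depth the control/fusion level was 72.2 times as high, with an exact 95% interval of 12.6 to 2890 for counting error. Without TA022, Trav9n-4, higher in fusion/fusion cells, was the only Trav gene called in this comparison (named after its value was seen), among 2142 of 15278 genes called in all.

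In the CD4+ cells of the CD4-Cre tumors, usage was less even than in WT cells, and each tumor had its own leading gene. The effective number was 36.1 in VM388, 37.1 in VM58, 35.6 in VM645 and 24.2 in VM98. All 4 lay below the WT range of 41.3 to 44.6. The leading gene was Trav14-2 with 6.30% in VM388, Trav4-4-dv10 with 5.97% in VM58, Trav7-4 with 8.39% in VM645 and Trav6n-6 with 14.2% (13.3% to 15.1%) in VM98. VM388 and VM58 were within the WT range of 5.33% to 6.58%, and VM645 and VM98 above it. With copies merged, the effective number was 22.6, 24.3, 18.6 and 17.2 in this order, against 26.7, 24.1 and 26.9 in VM211, VM216 and VM645 WT cells, so that VM58 then lay within the WT range.

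Trav6n-6, a member of the Trav6 family, took 0.63%, 0.58% and 0.84% of Trav counts in WT cells and 0.40%, 0.25% and 0.38% in the tumors VM388, VM58 and VM645. VM98 alone was high, with 857 counts or 35.0 CPM against 0.595 to 1.98 CPM in the other 6 libraries. As a group the tumors overlapped the WT cells, and the change of 2.86 ± 1.53 did not pass the test (adjusted p = 0.432). Without VM98 it was -0.49. The next gene of VM98, Trav14-2, took 5.74%. After leaving out Trav6n-6, the other genes of VM98 had an effective number of 34.8.

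In VM645, 2 copies of Trav7-4 were high side by side. Trav7-4 took 8.39% and Trav7d-4 6.07%, and merged they and their n copy took 16.8%, against 8.55%, 9.24% and 7.27% in WT cells and 7.09%, 8.16% and 10.3% in VM388, VM58 and VM98. VM645 was thus highest, and the merged share of VM98 was also above the WT range. Since the coding exons of Trav7-4 and Trav7d-4 differ at a single base, as marked in the sequence of Trav7-4, the counts cannot tell 1 highly used copy from both. The change of Trav7-4 over the tumors was 0.56 (adjusted p = 0.565).

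Of 79 Trav genes tested between tumor and WT CD4+ cells of the CD4-Cre set none was called, where 0.157% of all 17841 genes were (0.0168% higher and 0.14% lower). An unadjusted p under 0.05 was found for 6 Trav genes (7.59%, and 15.1% of all genes). DESeq2 called 3 of the 79 and 7.12% of all genes (Trav4-4-dv10, Trav8-2 and Trav11d, of which Trav8-2 was named after its value was seen). Trav4-4-dv10, which alpha and delta chains share, stood at 5.16, 3.46 and 5.36 CPM in WT cells and at 9.49 in VM388, 14.2 in VM58, 11.7 in VM645 and 6.82 in VM98. All tumors lay above all WT cells, and the change was 1.21 ± 0.34 (adjusted p = 0.172). Trav genes as a whole lay higher too: the median over the 79 genes was 0.49, against 0.06 over all genes, and the summed Trav level was 199, 193 and 236 CPM in WT cells and 290, 238, 353 and 247 CPM in VM388, VM58, VM645 and VM98. CD4+ T cell markers summed to 2706 to 3638 CPM in these tumors and 2475 to 2600 in WT cells, and CD8 T cell markers to 9.99 to 23.9 and 38.3 to 46.7 CPM. B cell markers summed to 27.7 to 610 CPM in the tumors and 550 to 936 in WT cells. Macrophage and monocyte markers summed to 55.1 to 1054 and 970 to 1269 CPM, and both ranges overlapped. Their part in the result was not tested.

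Trav11 and Trav1 encode the V part of the invariant alpha chains of natural killer T (NKT) cells and of mucosal-associated invariant T (MAIT) cells. Trav11 and its copies took 4.06% of Trav counts in VM211, 0.418% in VM216 and 0.973% in VM645 WT cells. In the tumors they took 0.308% in VM388, 0.083% in VM58, 0.009% in VM645 and 0.215% in VM98, each below all WT cells, with VM211 far above the rest. In WT cells most of these counts lay on Trav11d (298, 25 and 59 counts), chiefly in VM211. In the tumors Trav11d had 3, 0, 0 and 10 counts and Trav11n 24, 5, 1 and 1. Trav11d changed by -4.69 ± 1.45 (adjusted p = 0.196), and by -3.27 without VM211 (adjusted p = 0.62). Zbtb16, the transcription factor that directs NKT cells, stood at 6.12, 4.47 and 4.62 CPM in WT cells and at 0.29, 0.00, 0.03 and 1.39 CPM in the tumors, lower in all 4. The 3 NKT cell markers Zbtb16, Klrb1c and Slamf1 together fell less, from 106 to 114 CPM in WT cells to 37.6 to 89.8 CPM in the tumors. In the CD4-CreERT2 set, Trav11 and its copies took 0.292% and 0.462% in WT cells, 0.029% in VM231 and 0.210% in VM236, and in the pre-lymphoma set they took 0.085% to 0.412%. Trav1 took 0.469%, 0.896% and 0.342% in VM211, VM216 and VM645 WT cells and 0.242%, 0.153%, 0.066% and 0.347% in tumors VM388, VM58, VM645 and VM98, so that VM98 overlapped the WT cells.

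In the CD4-CreERT2 set, 1 of 2 tumors was dominated by a single Trav gene. Trav13-1 took 2.92% and 3.24% of Trav counts in the CD4+ cells of WT mice A1 and A3, 2.87% in tumor VM236 and 52.8% (51.9% to 53.6%) in tumor VM231. VM231 stood apart, with 7322 Trav13-1 counts, and VM236 lay just below the WT cells. In CPM, Trav13-1 was at 12.9 and 13.2 in WT cells, 12.2 in VM236 and 199 in VM231. The effective number was 3.50 in VM231 and 42.4 in VM236, against 40.1 and 39.7 in WT cells. The nearest copy, Trav13d-1, differs in 11 bases spread over the exon; merged with its copies, Trav13-1 took 53.5%.

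The other Trav genes of VM231 were at a lower level than in WT cells. Without Trav13-1 its Trav genes summed to 178 CPM, compared with 415 and 373 CPM in A1 and A3 without their own leading gene. Their effective number was 31.3, with Trav7-4 first at 8.96% of the rest. Over both tumors the change of Trav13-1 was 3.12 ± 1.29 (adjusted p = 0.995). None of 89 Trav genes was called, as none of all 17341 genes was (0%), with 13 Trav genes (14.6%) and 5.17% of all genes at an unadjusted p under 0.05. DESeq2 called 1 Trav gene (Trav13n-1, lower, named after its value was seen) and 1.57% of all genes. With VM236 left out, a lone tumor assumed to vary like the WT cells, Trav13-1 was called higher (4.07) and 27 of 92 Trav genes were called lower, where 17.8% of all 18263 genes were called, 10.4% higher and 7.4% lower. Markers of other cells moved in both tumors, some up and some down. Neutrophil markers summed to 74.5 to 4485 CPM against 35.4 to 52.4 in WT cells, and macrophage and monocyte markers to 387 to 1466 against 122 to 226. B cell markers were lower, at 130 to 1041 CPM against 1809 to 1876 in WT cells. Their part in the Trav levels was not tested. Without VM231, Trav13-1 changed by -0.25 and Trav4-2, higher, was the only Trav gene called (named after its value was seen), among 374 genes called in all (2.04%).

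The spleen of VM231 gave the same picture. Trav13-1 took 56.2% (53.9% to 58.5%) of 1810 Trav counts there, against 2.65%, 3.60% and 5.03% in the WT spleens A1, A2 and A3, 2.34% in spleen VM236 and 0.44% in spleen VM294. VM231 lay far above, and both other tumors below the WT spleens. The change over the 3 tumors was 2.21 ± 1.29 (adjusted p = 0.362) and without VM231 it was -0.60. The rest of the Trav genes in spleen VM231 had an effective number of 43.6.

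Spleen VM294 had 2 Trav genes above the rest. Trav15-2-dv6-2, a gene shared by alpha and delta chains, took 0.96%, 0.60% and 1.28% in the WT spleens, 0.33% in VM231, 0.55% in VM236 and 22.1% (20.0% to 24.2%) in VM294. Its level was 1.06, 0.624 and 1.05 CPM in WT spleens and 14.1 CPM in VM294, which alone was high; the change over the 3 tumors was 3.37 ± 1.55 (adjusted p = 0.274) and without VM294 it was -0.56. Trav3-3 took 4.28%, 3.49% and 3.15% in the WT spleens, 2.099% in VM231, 8.59% in VM236 and 14.5% in VM294. It led spleen VM236 and was second in VM294, while VM231 lay below the WT spleens; the change was 1.66 ± 0.82 (adjusted p = 0.30). VM294 had an effective number of 11.7 and counts on 61 Trav genes, the fewest of the 31 libraries.

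By family, the high share differed between the tumors of this set, and no family share was tested. Trav13 was high in VM231 only, with 5.24% and 3.75% in VM236 and 2.69% in VM294, and Trav15 was high in spleen VM294 (22.4%). The Trav3 family took 5.41% and 5.26% in WT CD4+ cells, 4.11% in VM231 and 8.35% in VM236. VM236 lay above and VM231 below both WT mice. In spleen it took 5.91%, 5.55% and 4.39% in WT mice, 4.53% in VM231, 15.5% in VM236 and 20.99% in VM294, so that VM236 and VM294 were high and VM231 was within the WT range. In VM236 the family was thus high in both tissues, although the effective number of its CD4+ cells (42.4) was no lower than in WT cells. In VM231 Trav13 took 54.5% and 59.4%, and since shares are parts of a whole, the other families together are lower there by arithmetic. The Trav14, Trav7, Trav12, Trav9, Trav6, Trav8, Trav5, Trav4 and Trav10 families each lay below all WT libraries of this set in the same tissue. Trav14 took 9.003% in CD4+ cells against 19.7% and 14.3% in A1 and A3.

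Genes with a delta name took 30.9% of the Trav counts of spleen VM294 and 5.95% to 17.7% in the other 30 libraries. Trdc, the constant gene of the delta chain, was at 63.0 CPM in VM294 and at 1.74 to 18.3 CPM in the other 5 spleens of the set. Of the other 4 gamma delta T cell markers, Tcrg-C1 (1.41 CPM), Tcrg-C2 (4.50) and Sox13 (0.040) were below all 3 WT spleens in VM294, as was Tcrg-C4 (7.40). Together these 4 summed to 13.3 CPM in VM294, 14.7 and 31.6 in spleens VM231 and VM236, and 33.3 to 50.04 in WT spleens, so that Trdc alone was high. Trac was at 109 CPM and Trbc2 at 28.7 CPM in VM294. The 5 gamma delta T cell markers summed to 16.4 to 76.3 CPM in the tumor spleens and 44.7 to 65.4 in the WT spleens, with none at 0. Neutrophil markers summed to 1839 to 55676 CPM in the tumor spleens and 272 to 655 CPM in the WT spleens, and CD4+ T cell markers to 226 to 868 and 665 to 772 CPM. Their part in the Trav usage was not tested. No Trav gene was called in the spleens of this set, of 55 tested, as no gene of all 16163 was (0%); by DESeq2, which called 11.2% of all genes, Trav3-1 was called higher and Trav7-6 lower. An unadjusted p under 0.05 was found for 5 Trav genes and for 20.1% of all genes; Trav3-1 was named after its value was seen.

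In the spleens of the CD4-Cre set, the WT libraries themselves were uneven, at low Trav counts. The leading gene was Trav12-2 with 10.8% (9.39% to 12.3%) of 1778 counts in VM211, Trav5-4 with 10.8% (8.83% to 13.1%) of 869 in VM216, and Trav14-1 with 5.13% of 1169 in VM645. The effective number was 25.5, 26.7 and 39.7. In the tumor spleens it was 32.7 in VM388, 35.6 in VM58 and 32.1 in VM98, within the WT range. Trav6n-6 took 0.06%, 1.15% and 0.34% in the WT spleens, 0.48% in VM388, 0.48% in VM58 and 7.84% (6.30% to 9.62%) in VM98, where it led as in the CD4+ cells of the same mouse. The change of 2.55 ± 1.34 did not pass the test (adjusted p = 0.44). None of 39 Trav genes tested was called, and none of all 17050 genes (0%); DESeq2 called no Trav gene and 4.34% of all genes, and an unadjusted p under 0.05 was found for no Trav gene and 13.9% of all genes.

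CD4+ cells and spleen of the same mouse shared most of their Trav usage. The shared part was 85.7% in VM231, 82.8% in VM236, 85.2% in A1 and 80.8% in A3. In the CD4-Cre set it was lower, with 66.0% in VM211, 65.9% in VM216 and 73.4% in VM645 among WT mice and 76.5% in VM388, 79.1% in VM58 and 66.8% in VM98 among tumors. CD4+ cells of VM231 and VM236 shared 47.4% with each other. In the CD4-Cre WT mice, CD4+ cells shared 60.9% to 72.5% with spleens of another mouse, so the same mouse was not set apart there. CD4+ cells of A1 and A3 shared 77.5% to 84.98% with another WT spleen of their set. CD4+ cells of the CD4-Cre tumors shared 64.4% to 74.9% with the spleen of another tumor mouse. These ranges hold the values of A3 and VM98. A spleen also holds CD8 and gamma delta T cells, whose Trav genes are counted with those of the CD4+ cells.

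**Figure D3:**
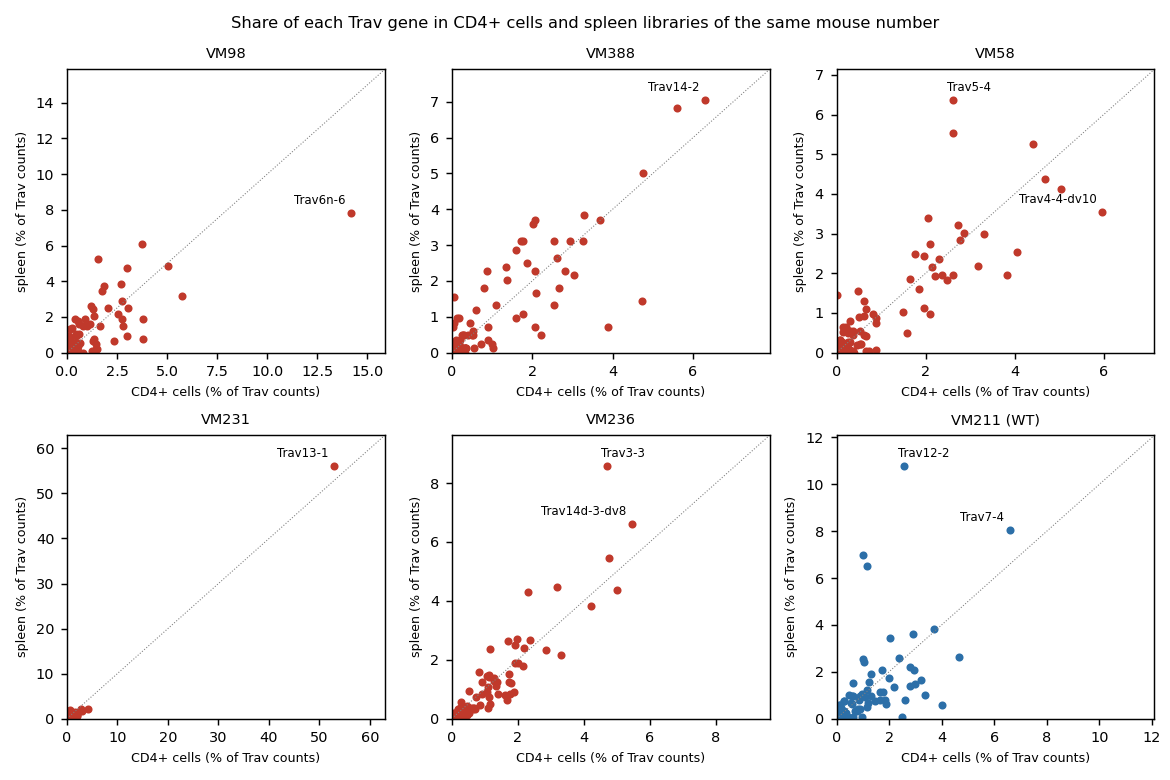
Share of each Trav gene in the CD4+ cells (x axis) and in the spleen (y axis) of the same mouse, in percent of Trav counts, for 5 tumor mice and WT mouse VM211; points are genes, the dotted line marks equal shares, and scales differ between panels. Trav13-1 in VM231 (52.8% and 56.2%) lies near the line and Trav6n-6 in VM98 (14.2% and 7.84%) below it, while in VM236 the gene highest in spleen, Trav3-3 (8.59%), took 4.69% in CD4+ cells.

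Summed over genes, Trav counts were higher in CD4+ cells than in spleen. In the WT mice of the CD4-Cre set 39 of 66 Trav genes were higher in CD4+ cells and none lower, where 25.7% of all 17426 genes were called, 12.9% higher and 12.8% lower. The median over the 66 was 2.23 (-0.02 over all genes), close to the change of Trac (2.22, adjusted p = 0.0004). Trav7-6 stood at 1.94, 1.67 and 1.83 CPM in CD4+ cells and at 0.0279, 0.0344 and 0.172 CPM in spleens, with no overlap and a change of 4.07 ± 0.75 (adjusted p = 0.008). Trav11d changed by 4.38 (adjusted p = 0.0235), with 298, 25 and 59 counts in CD4+ cells of VM211, VM216 and VM645 and 10, 2 and 1 in their spleens. Its call was lost in 4 of 11 alternatives, with changes of 3.01 to 5.69 and adjusted p-values up to 0.092, the last without the CD4+ cells of VM211. Trav4n-4 and Trav10d had 2 and 3 counts in the 3 spleens together. By counts and depth they were 73.5 times (20.0 to 613) and 21.6 times (7.10 to 108) as high in CD4+ cells, with exact intervals for counting error. Trav4n-4 had 13, 128 and 13 counts in CD4+ cells of VM211, VM216 and VM645, so its ratio rests mostly on VM216. Both genes were called higher, and each call was lost in 5 of 11 alternatives. Between tumor CD4+ cells and tumor spleens none of 70 Trav genes was called, as none of all 17534 genes was (0%), with a median of 2.55. DESeq2 called 35 of the 70 (7.06% of all genes) and 48 had an unadjusted p under 0.05 (14.2% of all genes). Trac changed by 2.52 there (adjusted p = 0.127).

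Usage along the locus differed between tumors. The genes of both kinds of table were split by position into 3 parts of about 43 genes, the last of which lies nearest to the Traj genes. The last part took 66.2% to 67.2% of Trav counts in WT CD4+ cells of the CD4-Cre set, 64.5% and 65.5% in those of the CD4-CreERT2 set and 62.6% and 65.6% in those of the pre-lymphoma set. In WT spleens it took 63.9%, 73.1% and 70.1% in VM211, VM216 and VM645 and 64.1%, 66.5% and 67.5% in A1, A2 and A3. VM231, whose Trav13-1 lies in the last part, had 77.5% in CD4+ cells and 78.6% in spleen, above the WT libraries of either tissue. VM388 had 74.1% in CD4+ cells and 76.6% in spleen, also above them, although no gene took more than 7.06% there. VM58 had 70.9% in CD4+ cells, above the WT cells, and 72.3% in spleen, within the range of the WT spleens. VM236 lay below, with 52.8% and 55.1%, and had 24.3% and 24.1% in the first part. In VM98 the CD4+ cells, led by Trav6n-6 of the middle part, had 59.98% in the last part and 32.3% in the middle part.

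**Figure D4:**
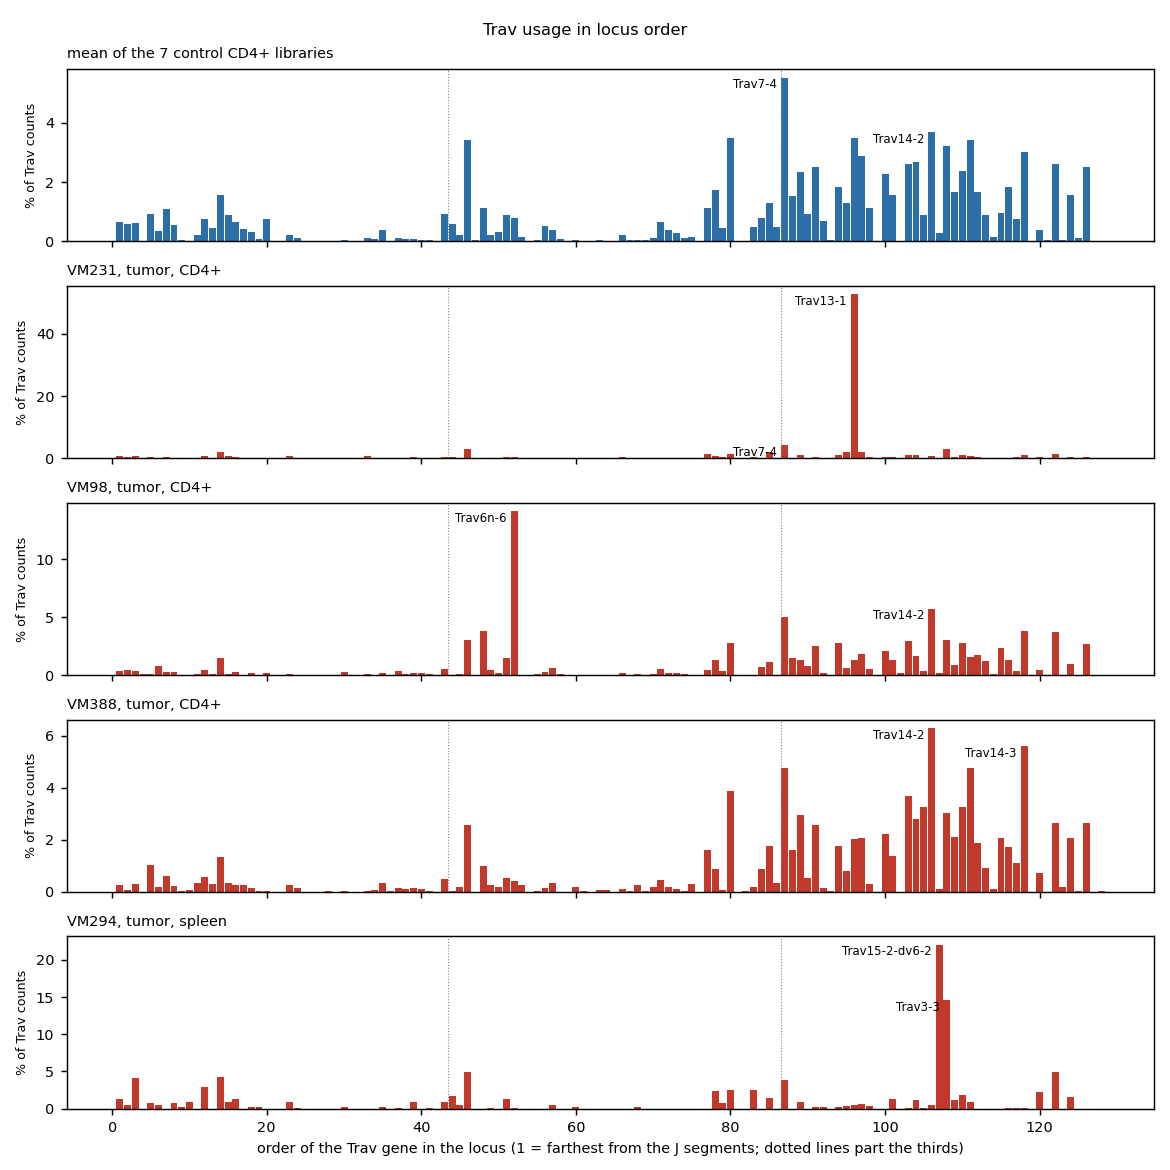
Share of each Trav gene in percent of Trav counts (y axis, with its own scale in each panel) in the order of the genes along the locus (x axis, the last gene being nearest to Traj), for the mean of the 7 WT libraries of CD4+ cells and for 4 tumor libraries; dotted lines separate the 3 parts of the locus. Single bars stand out at Trav13-1 in VM231 and Trav6n-6 in VM98 and a pair of neighbours in spleen VM294, and VM388 has many bars of at most 6.30%, mostly in the last part.

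Joining genes gave a second view of the alpha chain, at fewer counts. In VM231 the most counted Traj gene was Traj18, with 22.0% of 1955 Traj counts in CD4+ cells and 27.5% of 280 in spleen, where A1 and A3 CD4+ cells were led by Traj8 (8.10%) and Traj18 (8.55%). In VM98 CD4+ cells Traj27 led with 11.2%, and in spleen VM294 Traj18 with 12.1% of 165 counts. Leading Traj shares of the WT libraries ran from 7.82% to 14.4%, so only VM231 lay above them in its CD4+ cells and spleen and, among other tumor libraries, spleen VM98, with 15.4% on Traj17.

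Set beside the beta chain, dominance of an alpha gene and of a beta gene did not always occur together. The leading Trbv gene took 9.91% to 16.0% in WT libraries. In VM231 it was Trbv20 with 66.4% in CD4+ cells and 49.1% in spleen, beside 52.8% and 56.2% for Trav13-1. In VM388 it was Trbv3 with 51.0% and 46.5%, while the leading Trav gene took 6.30% and 7.06%. In VM645 tumor cells it was Trbv12-1 with 37.8%, beside 8.39% for Trav7-4 (16.8% with copies merged). Trbv12-2 came next there with 30.2%, against 4.42%, 4.12% and 4.67% in VM211, VM216 and VM645 WT CD4+ cells. Shares of Trbv genes were not merged. Spleen VM294 had Trbv13-1 at 22.3%. VM98 had a leading Trbv gene within the WT range in both tissues (15.4% and 11.5%), beside 14.2% and 7.84% for Trav6n-6, and VM58 and VM236 had both chains near the WT range.

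**Figure D5:**
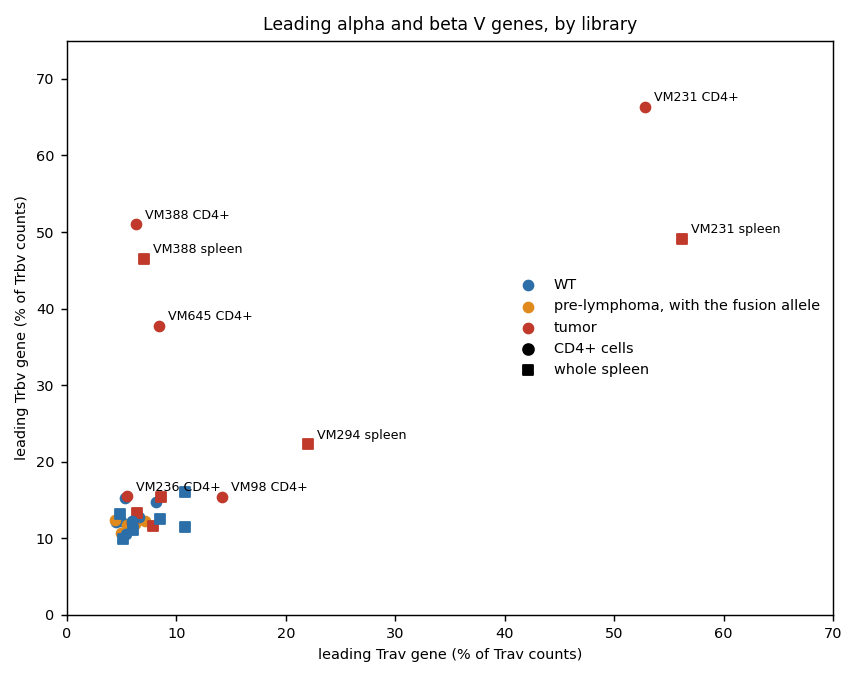
Share of the leading Trav gene in Trav counts (x axis, percent) against the share of the leading Trbv gene in Trbv counts (y axis, percent), with 1 point for each of the 31 libraries, coloured by status and shaped by source. VM231 is high on both axes, VM388 and the VM645 tumor on the Trbv axis only, spleen VM294 on both to a smaller extent, and VM98 CD4+ cells stand out on the Trav axis.

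In fusion/fusion against WT cells, genes of a T cell receptor list were called about as often as genes at large. Of 17 genes tested of a receptor list of 20 (Trac, the beta, gamma and delta constant genes, the CD3 chains, proximal signalling and recombination genes), 9 were called in fusion/fusion against WT cells, 4 higher and 5 lower, beside 45.7% of all genes (23.8% higher and 22% lower). Cd247, the zeta chain, fell by 1.04 on the log2 scale (SE 0.08), Dntt, which adds bases at the V to J junction, by 0.88 (SE 0.18), and Trdc by 0.91 (SE 0.21). Cd3g rose by 0.27 ± 0.07 and the kinase gene Zap70 by 0.34 ± 0.07. In control/fusion cells 1 was higher and 4 lower, beside 20.3% of all genes (11.6% higher and 8.7% lower), among them Cd247 (-0.59 ± 0.08) and Dntt (-1.25 ± 0.19). Trac changed by 0.24 in fusion/fusion cells (adjusted p = 0.0796). In the 4 comparisons of tumor with WT, none of the 17 was called by edgeR, where 0.157% of all genes were called in CD4-Cre CD4+ cells and 0% in each of the other 3. Between WT CD4+ cells and WT spleens of the CD4-Cre set, 13 of the 17 were higher and none lower. Of all genes, 12.9% were higher and 12.8% lower there. From the counts before lymphoma and between tumor and WT, nothing particular to the list is read. The ratio of summed Trav counts to Trac counts was 0.152 to 0.200 in the pre-lymphoma set, 0.318 to 0.392 in the CD4-Cre set and 0.375 to 0.591 in the CD4-CreERT2 set, with the highest value in spleen VM294; tables of the sets were made separately, so levels across sets are not compared further.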

How the data were processed

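Bulk polyA RNA of CD4+ T cells and whole spleens was read as gene counts. The deposited counts are raw whole numbers of reads per gene; per the submitters' processing notes, reads were aligned with HISAT2 2.1.0 and counted with HTSeq 0.5.4 on mm10 or GRCm38, and the annotation release is not given in the sources used here. Counters of this kind can drop or split reads of near-identical genes, and the strand of counting is not given.

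Trav genes were taken by symbol. Shares, CPM over gene counts (entries not assigned to a gene left out), effective numbers and exact Clopper-Pearson intervals were computed in Python 3.11.15 with scipy 1.17.1. Symbols of 3 gamma constant genes were matched through RefSeq synonyms. V exons and biotypes came from GENCODE M21 on GRCm38. All genes of a comparison were fitted with edgeR 4.0.16 (TMM scaling, filterByExpr, quasi-likelihood F test, two-sided, Benjamini-Hochberg over all genes, threshold 0.05), on the libraries of the groups compared or, before lymphoma, of the 3 groups together; a standard error is the log2 fold change over the square root of F. The steps were tested on simulated data. Shares of a leading gene or family carry no test. There were 9 comparisons. Alternatives were RLE scaling, no filter, DESeq2 1.42.0, other libraries, merged copies, counts per exon length, no delta-named genes, and thinning to 836 Trav counts.

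Mouse numbers in the titles pair CD4+ cells and spleens; over 10048 genes, deviations from the group means correlated by 0.457 to 0.591 in the 6 pairs of the same mouse. Named genes are leading genes and families, genes called with the largest changes, the invariant-chain genes Trav11 and Trav1, the most used families, and the receptor list. Members and lists were chosen with earlier results of these data known.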

Additional observations from a re-analysis of the deposited data

Results flagged for a closer look

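In the CD4+ cells of the CD4-Cre tumors, VM98 stood apart from the other 3 tumors in its effective number of Trav genes (24.2, the nearest being 35.6) and in the share of Trav6n-6 (14.2%, the nearest being 0.396%). VM645 stood apart in the share of Trav7-4 (8.39%, the nearest being 5.04%). These 3 were found among 26 groups of values checked. Trav6n-6 and Trav7-4 were checked as leading genes, and they lead VM98 and VM645. Without Trav6n-6 the effective number of VM98 was 34.8, so its flags are not separate. The count of flags is therefore not set against chance.

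Some differences between tumor libraries and the mean of their WT group went one way in all tumors of one set or tissue and the other way in all tumors of another. None of these differences was tested. The share of the leading gene was higher by 2.93 points in CD4+ cells of the CD4-Cre set, changed by -1.82 points in its spleens and was higher by 22.5 points in spleens of the CD4-CreERT2 set. The effective number changed by -9.41 in CD4-Cre CD4+ cells, by 2.83 in CD4-Cre spleens and by -24.8 in CD4-CreERT2 spleens. In CD4-Cre spleens the WT libraries were themselves uneven. The share of Trav12-2 changed by 1.03 points in CD4-Cre CD4+ cells, by -1.87 points in CD4-Cre spleens and by -1.66 points in CD4-CreERT2 CD4+ cells. That of Trav4-4-dv10 changed by 1.61 and 2.18 points in CD4+ cells and spleens of the CD4-Cre set and by -1.25 and -0.863 points in those of the CD4-CreERT2 set. That of Trav15-2-dv6-2 changed by 0.0836 points in CD4-Cre and by -0.343 points in CD4-CreERT2 CD4+ cells, and that of the Trav6 family by 4.70 points in CD4-Cre and by -3.60 points in CD4-CreERT2 spleens. The former rested largely on VM98, where the family took 15.6%, next to 5.38% in VM388 and 6.25% in VM58; without VM98 it was 1.44 points.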

How the results depend on the processing

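Shares rest on 836 to 14512 Trav counts, so that spleen values are less precise than those of CD4+ cells. Changes of Trav13-1, Trav6n-6 and Trav15-2-dv6-2 rested on single tumors: without VM98 that of Trav6n-6 in CD4-Cre CD4+ cells was -0.49, without VM231 that of Trav13-1 was -0.25 in CD4+ cells and -0.60 in spleens, and without VM294 that of Trav15-2-dv6-2 was -0.56. With another library left out these changes reached 3.26 (without VM58), 4.07 (without VM236), 2.80 (without VM294) and 4.04 (without VM236). Over all alternatives of single genes, 112 values kept their direction and side of the threshold, 23 lost the call, 3 gained it and 4 reversed. The causes of the changes below were not tested.

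Numbers of Trav genes called, in the order control/fusion against WT, fusion/fusion against WT and fusion/fusion against control/fusion, were 2, 2 and 2, and became 4, 4 and 6 with no filter on low counts and 1, 1 and 1 with DESeq2; the last was 0 when only its 2 groups were fitted. With 1 library left out they ran from 0 to 2, 2 to 3 and 1 to 3. The first was 0 without TA019 or TA022, and 1 without TA018 or TA021. The last was 1 without TA021 or TA022. In the tumor comparisons, no filter gave 1 gene in CD4-Cre CD4+ cells and 14 between CD4-Cre tumor cells and spleens, and DESeq2 gave 3 and 35. DESeq2 gave 1 gene in CD4-CreERT2 CD4+ cells and 2 in CD4-CreERT2 spleens. With 1 library left out, the counts ran from 0 to 28 in CD4-CreERT2 CD4+ cells (28 without VM236, 1 without VM231), from 0 to 2 in CD4-CreERT2 spleens (2 without VM236), and stayed at 0 in both tissues of the CD4-Cre tumors and between them. Between WT CD4+ cells and WT spleens they ran from 24 to 35 (24 without VM211 CD4+ cells, 25 without VM216 CD4+ cells), and 23 remained without the libraries numbered VM645. With the mouse as a replicate block, 39 genes were called there and 0 between tumor cells and spleens, as without it.

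With copies merged, the mean share of the leading gene was 11.8%, 11.5% and 13.4% in WT, control/fusion and fusion/fusion cells of the pre-lymphoma set, 8.80% in WT cells, 12.8% in tumor cells and 8.35% in tumor spleens of the CD4-Cre set, and 12.6% in WT cells and 10.05% in WT spleens of the CD4-CreERT2 set. The effective number was then 25.9, 25.1 and 23.1, then 25.9, 21.4, 20.7 and 24.6 in WT cells, WT spleens, tumor cells and tumor spleens of the CD4-Cre set, and 22.6 and 24.8. Without delta-named genes the leading share was 5.34% in pre-lymphoma WT cells, 6.65% in CD4-Cre WT cells and 8.23% in CD4-Cre tumor spleens; the effective number was 39.7, 39.5 and 38.6 in the pre-lymphoma set, 37.2 and 28.3 in CD4-Cre WT cells and tumor spleens, and 34.8 and 34.2 in CD4-CreERT2 WT cells and spleens; and the leading family took 18.4%, 17.5% and 18.1% in the pre-lymphoma set and 16.8% and 17.9% in CD4-Cre WT cells and spleens. Per exon length, the leading share was 4.997% in CD4-Cre WT cells, the effective number 45.4 in pre-lymphoma and 41.2 in CD4-CreERT2 WT cells, and the leading family 20.0% in pre-lymphoma WT cells. With Trav counts thinned to 836, the leading share was 5.38% in pre-lymphoma and 8.91% in CD4-CreERT2 WT cells, and the effective number 42.9 in pre-lymphoma WT cells, 42.7 in control/fusion cells and 33.7 in CD4-CreERT2 WT cells. The other 224 values of these kinds moved by less than 1 SD or by less than 1.5 times.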
